A study of Homo sapiens with 9 samples.

Results

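NPPB, TNNT2, PDLIM1, IL17RD and ITGA2 are 5 genes whose RNA moved one way when NFKB2 was knocked down in U2OS cells and the other way when RELB was knocked down. NPPB, TNNT2 and PDLIM1 were lower after siNFKB2 and higher after siRELB, and IL17RD and ITGA2 showed the reverse. They were chosen by these measured directions against the non-silencing control, so their fold changes are given as a description, with no test. All 5 are listed by symbol in every count table, and all 5 were among the 14815 genes that passed the filter on low counts, out of 44608 entries. U2OS is an established human osteosarcoma line. The cells received, with a lipid reagent and at 75 nM, a non-silencing siRNA (siNS), an siRNA against NFKB2 (siNFKB2) or one against RELB (siRELB), and RNA was taken 48 h later. Each group has 3 libraries of oligo-dT selected RNA, with 15011789 to 19279572 counts per library. No siRNA sequence is known here, nor how many siRNAs were used per target, so loss of the target and any other action of the siRNA given cannot be told apart. Nothing states that the replicates came from separate cultures, so the spread and the p-values describe these libraries.

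NFKB2 and RELB encode NF-kB subunits that pair in the non-canonical branch of the pathway, where the NFKB2 precursor is cut to its DNA-binding form and carried into the nucleus with RELB. The 5 genes have separate roles. NPPB encodes the precursor of B-type natriuretic peptide, a hormone that stretched heart muscle secretes and that acts through a guanylyl cyclase receptor. TNNT2 encodes cardiac troponin T, which ties the troponin complex to tropomyosin on the thin filament. PDLIM1 encodes a protein with a PDZ and a LIM domain that binds alpha-actinin on actin stress fibres. IL17RD encodes a membrane protein of the interleukin 17 receptor family, also called SEF, that restrains signalling from fibroblast growth factor (FGF) receptors to the kinase ERK. ITGA2 encodes the alpha2 integrin subunit, which joins the beta1 subunit to form a collagen receptor.

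Each target was lower in its own group. In siNFKB2 replicates 1 to 3, the NFKB2 left was 4.87%, 21.1% and 44.8% of its mean in siNS (log2 fold change -2.09, adjusted p = 0.021), and in siRELB the RELB left was 9.79%, 17.1% and 19.7% (-2.69, adjusted p = 0.00881). In the other knockdown, NFKB2 was at 108.6%, 156.2% and 155.5% of its siNS mean in siRELB (log2 0.49, adjusted p = 0.695) and RELB at 77.6%, 154.2% and 157.6% in siNFKB2 (0.38, 0.447). Neither was called there. The NFKB2 call was lost without siNS replicate 2 (adjusted p = 0.0532), siNS replicate 3 (0.0667) or siNFKB2 replicate 2 (0.0936), and the RELB call without siNS replicate 3 (0.0575) or siRELB replicate 2 (0.0591). Mitochondrial rRNA took 0.379% to 2.68% of the counts of a library. Of 15 osteosarcoma and mesenchymal markers, 14 were tested, and TWIST1 was listed at 0. Their summed level was 6692 to 8295 CPM in siNS, 5843 to 6334 CPM in siNFKB2 and 6055 to 7096 CPM in siRELB (CPM are counts scaled to the effective library size, by TMM). All siNFKB2 libraries were thus below all siNS libraries in this sum. Because NPPB and TNNT2 are best known from heart muscle, 20 other cardiomyocyte markers were read too. MYH6, MYH7 and MYBPC3 were listed at 0 in all 9 libraries and 15 of the 20 were below 1 CPM. The highest were NKX2-5, TNNC1 and MYL2, at a mean of 23.85, 21.07 and 11.54 CPM over all libraries. TNNT2 and NPPB were at 10.87 and 9.36 CPM by the same measure. The sum of the 20 markers was 50.6 to 75.5 CPM in siNS, 51.1 to 52.6 CPM in siNFKB2 and 68.7 to 75.6 CPM in siRELB. Of 13 skeletal and smooth muscle markers, 9 were below 1 CPM, with MYOG and MYH11 at 0, and the sum was 125.9 to 203.6, 135.2 to 230.8 and 196.4 to 282.1 CPM in the same order. Epithelial markers summed to 22.9 to 45.03 CPM and blood and endothelial markers to 8.94 to 12.1 CPM over all libraries. The part of these levels in the results below was not tested.

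Promoter sequence was found for 4 of the 5 genes in the RefSeq table (GRCh38.p14), and no entry was found for NPPB. The 250 bases before each start site are shown because genes that move together can be compared there, letter by letter. They were searched on both strands for 6 short motifs, and capitals mark every match: GC boxes in PDLIM1, ITGA2 and IL17RD, and a TEAD site in TNNT2. The TNNT2 window lies at chr1:201377681-201377930, that of PDLIM1 at chr10:95291004-95291253 and that of IL17RD at chr3:57165354-57165603, all on the minus strand. The ITGA2 window lies at chr5:52989102-52989351 on the plus strand.
TNNT2: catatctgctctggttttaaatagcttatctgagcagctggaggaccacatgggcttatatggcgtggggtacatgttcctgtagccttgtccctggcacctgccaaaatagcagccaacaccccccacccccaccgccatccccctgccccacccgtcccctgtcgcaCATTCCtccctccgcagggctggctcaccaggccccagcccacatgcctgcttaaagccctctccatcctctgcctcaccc
PDLIM1: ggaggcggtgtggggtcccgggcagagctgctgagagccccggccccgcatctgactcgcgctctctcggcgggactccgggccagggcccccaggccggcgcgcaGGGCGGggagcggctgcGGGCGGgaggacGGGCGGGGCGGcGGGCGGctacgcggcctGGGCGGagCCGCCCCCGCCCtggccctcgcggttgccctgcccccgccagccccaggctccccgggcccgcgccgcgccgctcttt
IL17RD: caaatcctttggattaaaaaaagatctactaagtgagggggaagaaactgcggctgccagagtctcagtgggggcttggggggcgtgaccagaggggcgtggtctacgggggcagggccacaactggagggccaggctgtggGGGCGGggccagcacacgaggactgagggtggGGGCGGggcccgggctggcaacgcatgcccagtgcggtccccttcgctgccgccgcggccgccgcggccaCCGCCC
ITGA2: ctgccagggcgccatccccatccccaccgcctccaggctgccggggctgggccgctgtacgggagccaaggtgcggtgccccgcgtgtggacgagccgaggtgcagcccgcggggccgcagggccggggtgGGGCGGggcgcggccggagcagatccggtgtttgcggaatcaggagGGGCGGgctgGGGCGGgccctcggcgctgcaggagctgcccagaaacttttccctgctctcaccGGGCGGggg

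The GC box, GGGCGG, is the motif that SP-family factors bind. It matched 8 times in PDLIM1, some matches overlapping, 4 times in ITGA2, 3 times in the IL17RD window shown and not in TNNT2. A second RefSeq start site of IL17RD, at chromosome 3 position 57170317, held 1 match in its 250 bases. Of all 35116 promoter windows of this length, 42.6% hold the GC box. So the 3 genes with GC boxes include one that was lower in siNFKB2 (PDLIM1) and both that were higher. The share of G and C was 82.8% in PDLIM1, 76.4% in ITGA2, 68.8% in the IL17RD window shown and 60.4% in TNNT2. Over all windows the median was 58%, and before the second IL17RD start site the share was 56%. The TEAD letters, CATTCC, begin 81 bases before the TNNT2 start site and are in 11.9% of all windows. No match was found in these windows for the AP-1 letters TGANTCA (6.57% of all windows), the TATA box TATAAA (10.7%), the NF-kB consensus (5.21%) or the CArG box (1.16%), which says only that these letters are not there.

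NPPB had the widest span of the 5 genes. It lies on chromosome 1, 11857464 to 11858931, minus strand (GRCh38, GENCODE 29). Its level was 2.26, 5.06 and 2.25 CPM in siNS replicates 1 to 3, 0.322, 0.928 and 0.993 CPM in siNFKB2, and 12.4, 29.2 and 30.9 CPM in siRELB. All 3 siNFKB2 libraries were below all siNS libraries, and all siRELB libraries were above them. The fitted log2 fold change was -2.10 in siNFKB2 (SE 0.544, 4.28-fold lower) and 2.93 in siRELB (SE 0.44, 7.61-fold higher), so the knockdowns stood 32.6-fold apart. In bulk RNA, fewer cells that express a gene and less RNA per cell cannot be told apart. The low end rested on few reads, at 6, 16 and 15 counts in siNFKB2 against 41 to 81 in siNS and 242 to 564 in siRELB. Its coefficient of variation was 50.8% in siNS and 49.5% in siNFKB2, the highest of the 5 genes in both groups. In siRELB it was 42.3%, below the 58.0% of ITGA2.

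**Figure D1:**
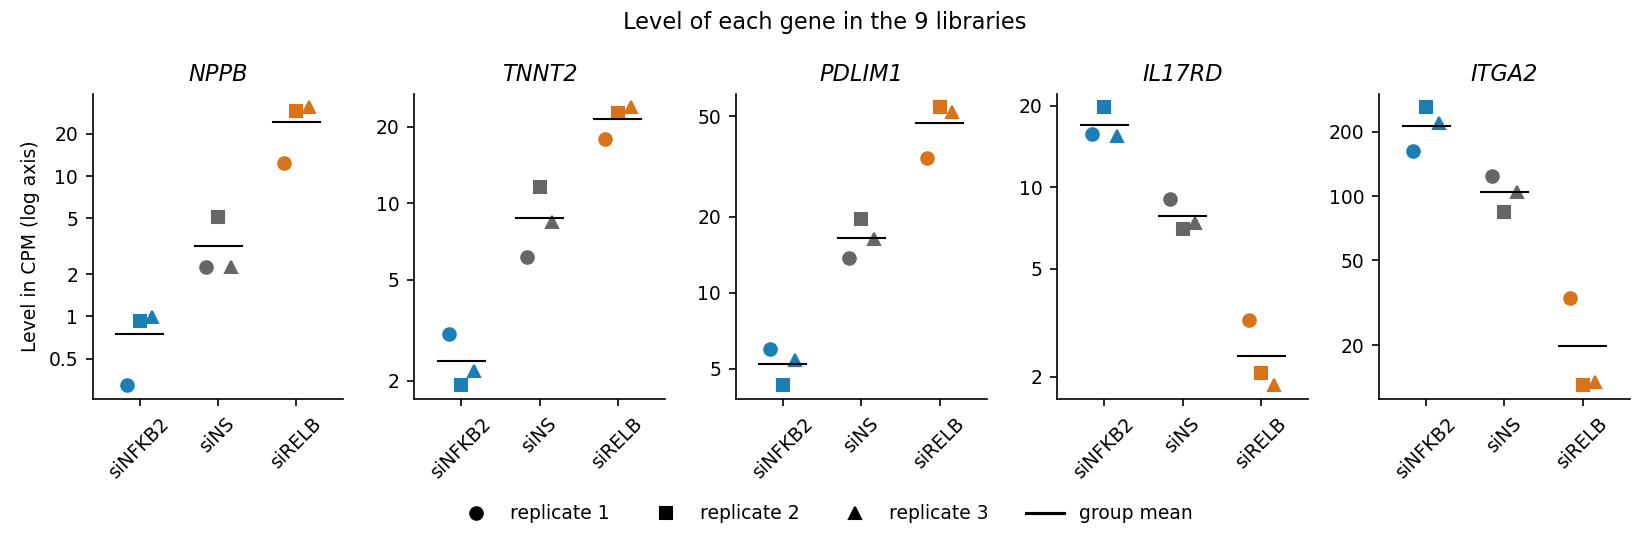
Level in CPM (log axis, a separate scale in each panel) of the 5 genes in the 3 siNFKB2, 3 siNS and 3 siRELB libraries, with a bar at each group mean. No 2 groups overlap in any panel, and siRELB replicate 1 is the library of its group nearest to siNS for each gene.

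TNNT2 and PDLIM1, both of the actin cytoskeleton, followed each other closely. TNNT2 (chromosome 1, 201359008 to 201377762, minus strand) was at 6.15, 11.6 and 8.40 CPM in siNS, 3.06, 1.91 and 2.18 CPM in siNFKB2, and 17.9, 22.7 and 23.9 CPM in siRELB. The groups did not overlap, and the highest siNFKB2 library was at 3.06 CPM against a lowest siNS library of 6.15 CPM. The log2 fold changes were -1.86 (SE 0.271, 3.63-fold lower) and 1.30 (SE 0.244, 2.47-fold higher). PDLIM1 (chromosome 10, 95237572 to 95291024, minus strand) was at 13.7, 19.6 and 16.3 CPM in siNS, 5.96, 4.29 and 5.43 CPM in siNFKB2, and 34.1, 54.2 and 52.1 CPM in siRELB. Its groups were again apart in all libraries. The log2 fold changes were -1.65 (SE 0.224, 3.15-fold lower) and 1.5 (SE 0.211, 2.84-fold higher), so that TNNT2 and PDLIM1 stood 8.95-fold and 8.93-fold apart between the knockdowns. TNNT2 shares 1.12% of its exonic length with LAD1 on the same strand, and none of the other 4 genes has an exonic overlap in GENCODE 29.

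IL17RD and ITGA2, both membrane proteins, went the other way. IL17RD (chromosome 3, 57089982 to 57170306, minus strand) was at 9.10, 7.003 and 7.41 CPM in siNS, 15.7, 19.7 and 15.5 CPM in siNFKB2, and 3.23, 2.06 and 1.86 CPM in siRELB. Its siNS libraries lay between both knockdowns with no overlap. The log2 fold changes were 1.11 (SE 0.211, 2.16-fold higher) in siNFKB2 and -1.71 (SE 0.231, 3.28-fold lower) in siRELB. ITGA2 (chromosome 5, 52989326 to 53094779, plus strand) was at 124.8, 84.2 and 104.6 CPM in siNS, 163.1, 260.6 and 219.4 CPM in siNFKB2, and 33.3, 13.01 and 13.5 CPM in siRELB. It was the most abundant of the 5, and its log2 fold changes were 1.04 (SE 0.331, 2.05-fold higher) and -2.39 (SE 0.35, 5.23-fold lower). IL17RD and ITGA2 stood 7.09-fold and 10.7-fold apart between the knockdowns. Per kilobase of exonic length in siNS, the order was ITGA2 at 13.2, PDLIM1 at 7.37, NPPB at 4.599, TNNT2 at 1.20 and IL17RD at 0.82 CPM per kb. The lengths join all annotated exons, 7.259 kb for TNNT2, which may be longer than the transcripts in these cells.

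The size of the response differed between libraries. In siRELB, replicate 1 was nearest to siNS for all 5 genes. ITGA2, for example, was at log2 -1.65, -3.01 and -2.95 relative to the siNS mean in siRELB replicates 1 to 3, and NPPB at 1.96, 3.19 and 3.27. Replicate 1 of siRELB also had the least RELB left relative to the siNS mean (9.79%). RELB was lowest in siNS replicate 1 too, at 17.1 CPM beside 30.3 and 34.1 CPM in siNS replicates 2 and 3. In siRELB replicates 1 to 3 RELB was at 2.66, 4.66 and 5.36 CPM. The order of RELB left thus depends on the siNS level it is set against. Against the siNS library of the same number, ITGA2 was at -1.91, -2.69 and -2.95 and NPPB at 2.46, 2.53 and 3.78. Replicate 1 thus stayed lowest in size for both by this measure too, but not for TNNT2, where the values were 1.54, 0.97 and 1.51. In siNFKB2, TNNT2, PDLIM1 and ITGA2 were nearest to siNS in replicate 1, where the least NFKB2 was left, at log2 -1.51, -1.47 and 0.64. NPPB was farthest from siNS there, at -3.31 on 6 counts. All 30 ratios, by either measure, had the sign of their group. The choice of the genes sets this, since their groups do not overlap.

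**Figure D2:**
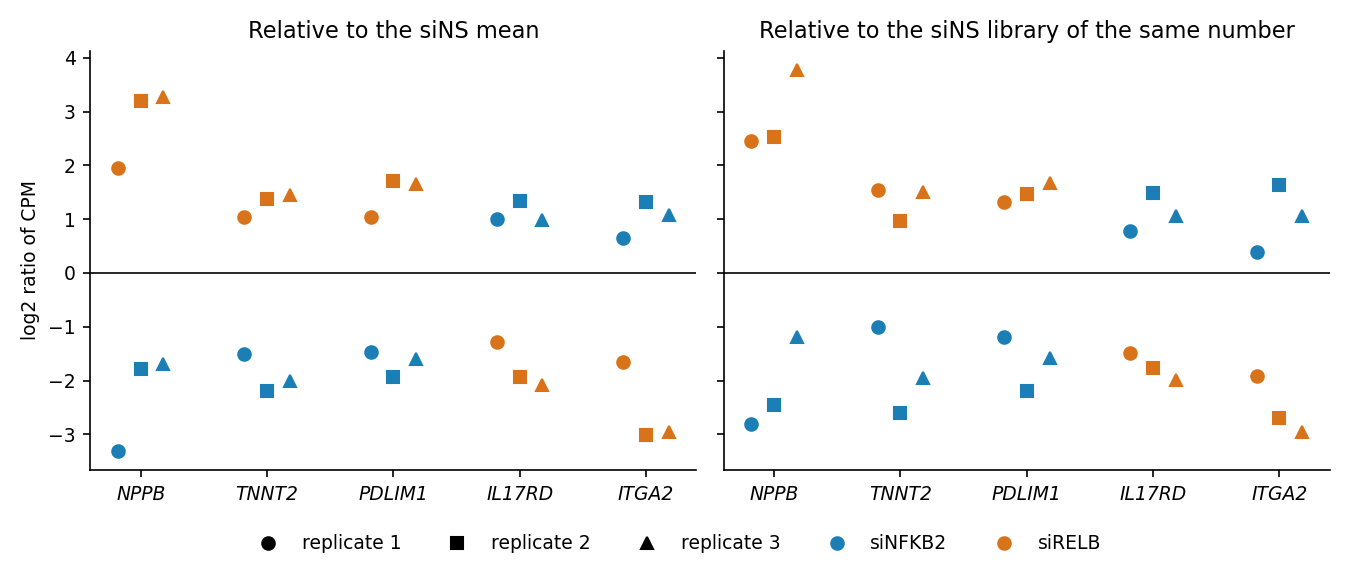
The log2 ratio of CPM of each siNFKB2 and siRELB library to the siNS mean (left) and to the siNS library of the same replicate number (right) for the 5 genes. Each gene has its 3 siNFKB2 points on one side of 0 and its 3 siRELB points on the other, which the choice of the genes sets. The smallest ratio to a same-numbered library is that of ITGA2 in siNFKB2 replicate 1, at 0.39.

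The choice of the 5 genes can be placed among all genes tested. Here called means an adjusted p below 0.05 by edgeR's quasi-likelihood test. In siNFKB2 26.1% of genes were called, 12.6% higher and 13.5% lower. In siRELB 2.02% were called, 1.21% higher and 0.81% lower. Called in opposite directions were 29 genes (0.196%), of which 17 were lower in siNFKB2 and higher in siRELB and 12 the reverse. Both comparisons share the siNS libraries. Of the 29 genes, 24 had a mean of at least 5 CPM, and the 5 described here are those of the 24 with the widest gap between both log2 fold changes. Of the 5, ITGA2 was nearest to the threshold, at an adjusted p of 0.0425 in siNFKB2. Of all 29, ULBP3 was nearest, at 0.0482 in siNFKB2, and just outside were LTBP1, which encodes a binding protein of latent TGF-beta, and MAMLD1. LTBP1 was at log2 -0.64 and 0.54, with an adjusted p of 0.0545 in siRELB, and MAMLD1 at -0.51 and 0.61 (0.0572). Levels ordered siNFKB2, siNS, siRELB with no overlap between libraries were found for 2.15% of all genes and the reverse order for 1.65%. All 29 opposite calls had such an order, and so the choice sets this for the 5.

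**Figure D3:**
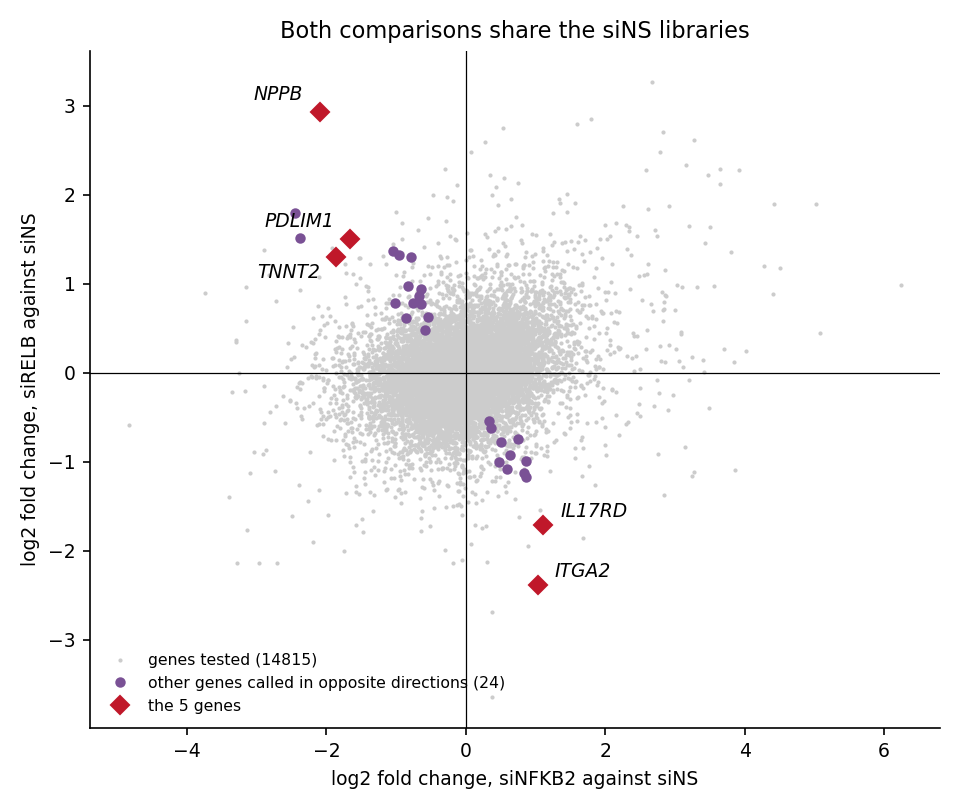
The log2 fold change in siNFKB2 (x axis) against that in siRELB (y axis), both relative to the same siNS libraries, for 14815 genes, with the 29 genes called in opposite directions marked. NPPB lies at -2.10 and 2.93, the farthest of the marked genes from the origin, and ITGA2 and IL17RD lie at the lower right.

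The count of opposite calls depended on single libraries. It was 0 when siNS replicate 3, siRELB replicate 2 or siRELB replicate 3 was left out, where edgeR at an unadjusted p under 0.05 gave 165, 174 and 190 genes and DESeq2 27, 26 and 28. It was 5, 11 and 16 on leaving out siNS replicate 2, siNFKB2 replicate 2 and siNFKB2 replicate 3, and 66 and 48 on leaving out siNS replicate 1 and siNFKB2 replicate 1. With the replicate number as a block it was 212, and 5944 and 1570 genes were called in siNFKB2 and siRELB, in place of 3869 and 299. The 5 genes were all among the opposite calls with the block, and also without the 3 libraries numbered 1, where 439 genes were called. In the 3 settings with no opposite call, all 5 had unadjusted p under 0.05 in both comparisons, and DESeq2 called 4, 5 and 5 of them. These are the comparisons that chose the 5 genes, so this is a description and gives their directions no further support. Without siNS replicate 2, the choosing adjusted p in siNFKB2 was 0.121 for ITGA2 and 0.0599 for NPPB, and without siNFKB2 replicate 2 it was 0.152 and 0.0521. NPPB was at 0.0538 without siNFKB2 replicate 1 and ITGA2 at 0.101 without siNFKB2 replicate 3.

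**Figure D4:**
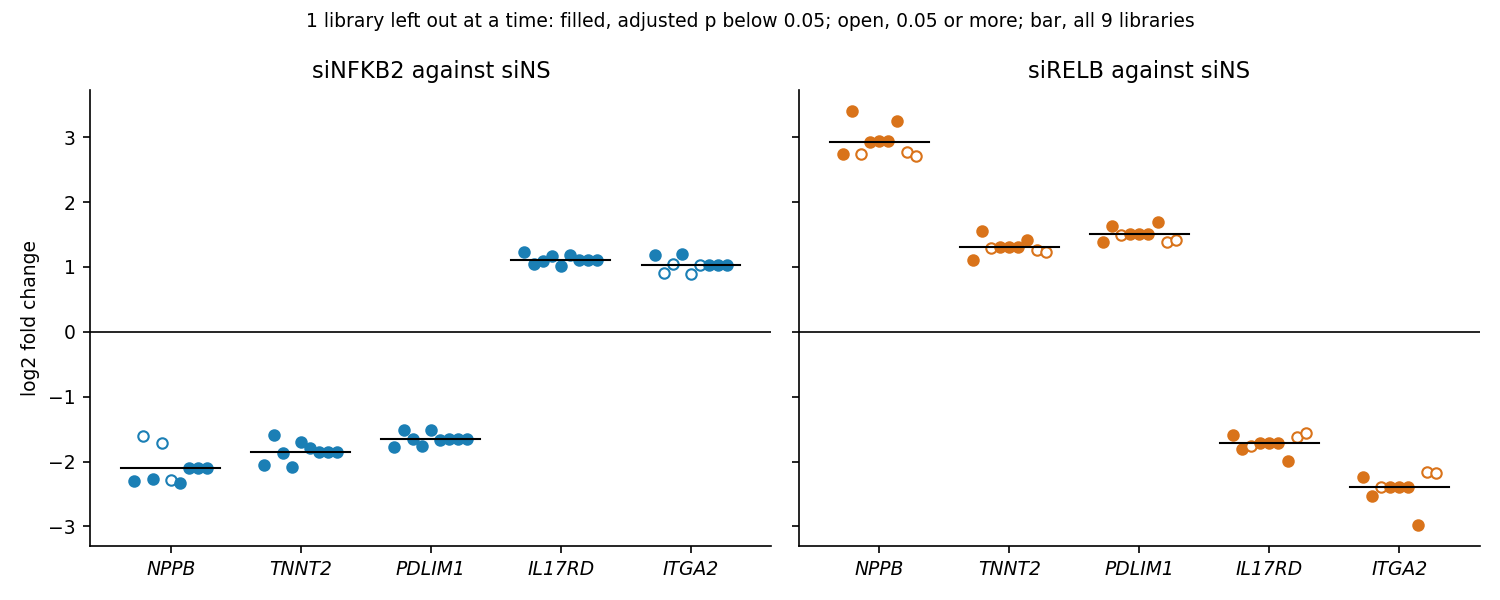
The log2 fold change of each gene in siNFKB2 (left) and siRELB (right) with 1 of the 9 libraries left out at a time, filled where the adjusted p was below 0.05 and open otherwise, beside a bar at the value from all 9. No value crosses 0, but the genes were chosen by these signs. ITGA2 in siRELB spans -2.98 (without siRELB replicate 1) to -2.16 (without siRELB replicate 2).

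Likeness between the genes was measured as Pearson's r of log2 CPM over the 9 libraries, which mostly reflects the gap between the groups that chose them. TNNT2 and PDLIM1 were at 0.99, IL17RD and ITGA2 at 0.99, and NPPB and TNNT2, the least alike of the 3 genes that go together, at 0.93. Deviations of each library from its group mean, whose spread also entered the adjusted p that chose the genes, gave r of 0.86 for TNNT2 with PDLIM1 and 0.93 for IL17RD with ITGA2. PDLIM1 was at -0.95 with IL17RD and -0.96 with ITGA2 by this measure, while NPPB was at 0.24 with TNNT2. These 9 deviations share library effects, since libraries deviated together across groups over all genes.

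For each gene the 3 genes most like it, at a mean of at least 5 CPM, were taken over the same 9 libraries. For NPPB these were CNN1 (r = 0.987), TAGLN (0.981) and MAMLD1 (0.975). CNN1 and TAGLN encode calponin and transgelin, actin-binding proteins of smooth muscle. For TNNT2 they were SH3RF2 (0.993), PDLIM1 (0.992) and MYL9 (0.992), the regulatory light chain of myosin, and for PDLIM1 they were SH3RF2 (0.995), the mitochondrial exchanger SLC8B1 (0.994) and TNNT2 (0.992). For IL17RD they were TBK1 (0.992), a kinase of innate immune signalling, NICN1 (0.992) and ATP8B2 (0.992), a lipid flippase. For ITGA2 they were IL17RD (0.987), LSG1 (0.987) and TBK1 (0.985).

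Most of these genes had smaller fitted changes than the gene they resemble. CNN1 was at log2 -0.79 in siNFKB2 and 1.30 in siRELB (adjusted p = 0.0275 and 0.0206), SH3RF2 at -0.85 and 0.62 (0.00116 and 0.034), ATP8B2 at 0.64 and -0.92 (0.0149 and 0.0211) and TBK1 at 0.33 and -0.54 (0.0381 and 0.0318). These genes are among the 29 opposite calls. TAGLN was at -0.38 and 0.66 (0.0763 and 0.0469), MYL9 at -0.56 and 0.42 (0.0119 and 0.147), SLC8B1 at -0.50 and 0.32 (0.00907 and 0.181), NICN1 at 0.40 and -0.69 (0.0728 and 0.0499) and LSG1 at 0.13 and -0.30 (0.362 and 0.16). The siRELB calls of CNN1, SH3RF2, ATP8B2, TBK1, TAGLN and NICN1 were each lost without siNS replicate 3, siRELB replicate 2 or siRELB replicate 3, at adjusted p of 0.11 to 0.243, and without siNS replicate 2, at 0.0545 to 0.134. Except for CNN1 they were also lost without siNFKB2 replicate 2 (0.0528 to 0.0842), those of SH3RF2, TBK1, TAGLN and NICN1 without siNFKB2 replicate 3 or siRELB replicate 1 (0.0531 to 0.0715), and that of NICN1 without siNFKB2 replicate 1 (0.0533). In siNFKB2 the calls of ATP8B2, TBK1, MAMLD1, MYL9 and SLC8B1 were lost without siNFKB2 replicate 2 (0.0502 to 0.106), and those of CNN1, ATP8B2, TBK1 and MAMLD1 without siNS replicate 2 or 3 (0.051 to 0.107). The call of CNN1 was also lost without siNFKB2 replicate 1 or 3 (0.0737 and 0.0685), and that of TBK1 without siNFKB2 replicate 3 (0.12) or any siRELB library (0.0512 to 0.073).

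The genes next to the 5 on the chromosome were taken by position. Only the 13496 of 14815 tested genes matched by symbol to 1 GENCODE 29 gene were placed, and genes overlapping the 5 were left out. Of 10 neighbours, the nearest such gene on each side, 2 were called in siNFKB2 and none in siRELB. Of all genes, 26.1% and 2.02% were called. NPPA, which encodes the atrial natriuretic peptide and lies 9.1 kb from NPPB, was at 0.665 CPM, with log2 fold changes of -0.38 and -0.02 (adjusted p = 0.785 and 0.991). MOCS2, 0.9 kb beyond ITGA2, was at 91.1 CPM with -0.04 and -0.19 (0.787 and 0.35), and ITGA1, another collagen-binding integrin 30.1 kb before ITGA2, was at 0.28 and -0.48 (0.525 and 0.452). HELLS, 623.7 kb from PDLIM1, fell in siNFKB2 (log2 -0.68, adjusted p = 0.00535), as did ARHGEF3, 10.7 kb from IL17RD (-0.76, adjusted p = 0.034). The ARHGEF3 call was lost without siNS replicate 1 (0.0751), siNS replicate 3 (0.0724), siNFKB2 replicate 2 (0.138), siNFKB2 replicate 3 (0.125) or siRELB replicate 3 (0.0527). PHLDA3 and TMEM9 beside TNNT2, KIAA2013 beside NPPB and HESX1 beside IL17RD had adjusted p from 0.2 to 0.739.

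Genes related to the 5 by family, partner or pathway were taken from 8 lists that leave the 5 out. The lists were chosen with earlier results of these data known, so their shares are a description. Over 165 distinct genes tested, 71 were called in siNFKB2 (43%), 29 higher and 42 lower, and 10 in siRELB (6.06%), 7 higher and 3 lower, where 26.1% and 2.02% of all genes were called. The siNFKB2 count was 47 without siNFKB2 replicate 2. The siRELB count ranged from 0, without siNS replicate 3 or siRELB replicate 2, to 32 without siNS replicate 1, was 2, 6, 6 and 1 without siNS replicate 2, siNFKB2 replicates 2 and 3 and siRELB replicate 3, and was 39 with the replicate block. The median log2 fold change of all genes was near 0 in both comparisons, at -0.0037 and -0.016.

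**Figure D5:**
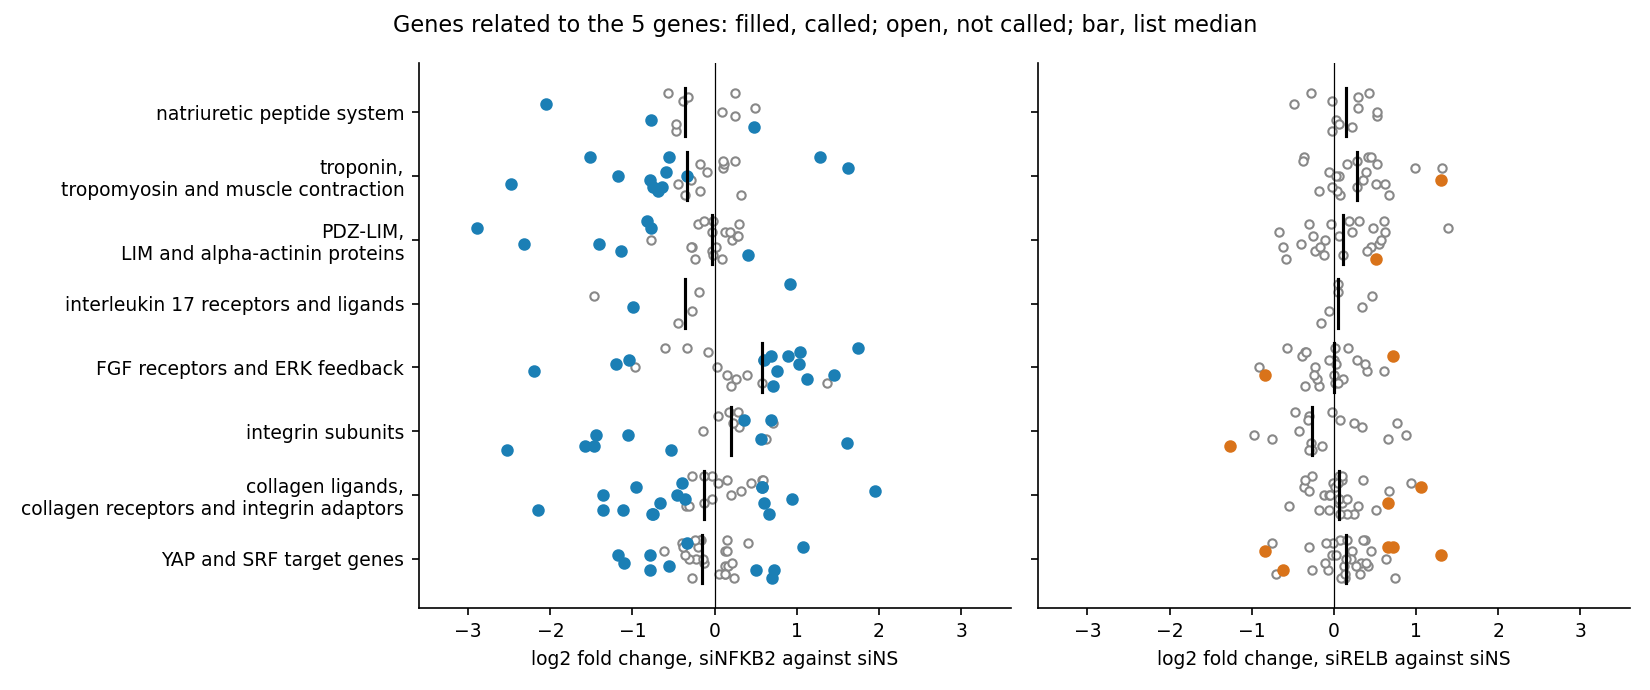
The log2 fold change in siNFKB2 (left) and siRELB (right) of each tested gene of 8 related lists, with called genes filled, others open and a bar at the list median. The median of the muscle contraction list lies at -0.33 on the left and 0.28 on the right, and that of the FGF and ERK list at 0.58 and 0.00.

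Around NPPB, 12 tested genes of natriuretic peptides and of cyclic GMP were called about as often as all genes in siNFKB2. The receptor genes NPR1 and NPR3 were at 0.152 and 0.144 CPM and the ligand gene NPPC at 0.0661 CPM, while NPR2 was at 24.6 CPM and FURIN at 260.3 CPM. Of the 12, 1 rose and 2 fell (25%, beside 26.1% of all genes). NPR2, the receptor of C-type natriuretic peptide, rose (log2 0.48, adjusted p = 0.0353), although this call was lost in 7 of 9 settings that left out 1 library, at up to 0.125 without siNS replicate 3. FURIN, a protease that cuts the NPPB precursor, fell (-0.78, adjusted p = 0.00412), as did GUCY1A2, a subunit of the soluble guanylyl cyclase (-2.05, 0.0023). PDE9A, which breaks down cyclic GMP, was at -0.47 (0.153). By edgeR 0 of the 12 were called in siRELB (beside 2.02% of all genes), with 1 at an unadjusted p under 0.05 and 0 by DESeq2. The list's median was -0.36 in siNFKB2 and 0.14 in siRELB.

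Around TNNT2, many genes of actin and myosin filaments fell in siNFKB2. Of 23 tested genes of troponin, tropomyosin and muscle contraction, 10 fell and 2 rose (52.2%, beside 26.1% of all genes). TPM1, a tropomyosin at a mean of 553.1 CPM, fell (log2 -1.18, adjusted p = 0.000374), with TPM4 (-0.59, 0.00275) and the smooth muscle actin ACTA2 (-1.51, 0.000739). TMOD1, which caps thin filaments, rose (1.62, 0.00144). In siRELB 1 of the 23 was called (4.35%, beside 2.02% of all genes), which was CNN1. TPM1 was at 0.03 (0.942) there, TPM4 at 0.39 (0.0909), ACTA2 at -0.36 (0.37) and TMOD1 at 0.99 (0.0794). The list's median was -0.33 in siNFKB2 and 0.28 in siRELB. The siNFKB2 count was 6 or 7 without siNS replicate 2, siNS replicate 3, siNFKB2 replicate 2 or siNFKB2 replicate 3. The siRELB count was 5 with the replicate block, 3 without siNS replicate 1 and 0 without siNS replicates 2 or 3 or siRELB replicates 2 or 3. The cardiomyocyte marker sums given above overlapped between siNS and siNFKB2. Of those markers, 5 of 9 tested were called in siNFKB2, 3 lower and 2 higher (55.6%, beside 26.1% of all genes). In siRELB edgeR called 0 of the 9 (beside 2.02% of all genes), with 2 at an unadjusted p under 0.05 and 1 called by DESeq2. ACTC1 (log2 -2.48, adjusted p = 0.00811, mean 0.693 CPM), MYL2 (-0.75, 0.0201) and NKX2-5 (-0.90, 0.0215) fell. RYR2 rose (3.09, 0.000259), as did TTN (1.28, 0.0379, mean 0.547 CPM), named after its value was seen. The TTN call was lost with DESeq2 (adjusted p = 0.078) and without any siNS library, siNFKB2 replicate 2, siNFKB2 replicate 3 or siRELB replicate 3 (0.063 to 0.133 by edgeR). The calls of MYL2 and NKX2-5 were lost without siNFKB2 replicate 2 or 3, at adjusted p of 0.0607 to 0.0714, MYL2 also without siNS replicate 2 (0.0652) and NKX2-5 without siNS replicate 3 (0.0906). The count of 5 was 3, 3, 2 and 2 without siNS replicates 2 and 3 and siNFKB2 replicates 2 and 3.

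Around PDLIM1, the list was called about as often as all genes in siNFKB2. Of 25 tested PDZ-LIM, LIM and alpha-actinin genes, 6 fell and 1 rose (28%, beside 26.1% of all genes). CSRP2, a LIM protein of muscle, fell by 2.32 on the log2 scale (adjusted p = 0.000258), and LIMS2, an adaptor at integrin adhesions, and PDLIM3, of the same family as PDLIM1, fell too (-1.41 and -1.14, adjusted p = 0.000453 and 0.00431). CSRP3 was at -2.89 (0.00781) on a mean of 0.958 CPM. In siRELB these 4 were at -0.39, 0.54, 0.41 and 1.39 (adjusted p = 0.388, 0.115, 0.356 and 0.129). Also in siRELB, 1 of the 25 was called (4%, beside 2.02% of all genes). This was CSRP1, which was higher (0.51, 0.0273) and was named after its value was seen. Its call was lost without siNS replicate 2 (0.0838), siNS replicate 3 (0.168) or any siRELB library (0.0675 to 0.159). The list's median was -0.03 in siNFKB2 and 0.11 in siRELB. The siNFKB2 count was 4 without siNFKB2 replicate 2 or 3. The siRELB count was 9 with the replicate block, 4 without siNS replicate 1 and 0 without siNS replicates 2 or 3 or any siRELB library. ZYX, on this list, SPRY4 and DDR1 were listed at 0 in all libraries and are not read here as absent.

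Around IL17RD, more genes of FGF receptors and ERK feedback rose than fell in siNFKB2. Of 25 tested genes of that list, 10 rose and 3 fell (52%, beside 26.1% of all genes), with a median of 0.58. SPRED3, an inhibitor of ERK signalling, rose (log2 1.45, adjusted p = 0.000396), as did DUSP5, a phosphatase of ERK (1.74, 0.00162). FGFR2, a receptor, fell (-1.20, 0.000748), as did FLRT3, a membrane protein linked to FGF receptors (-2.19, 0.00124). In siRELB these 4 were at -0.25, -0.57, 0.02 and 0.61 (adjusted p = 0.483, 0.327, 0.956 and 0.297). Of the 25, 8% were called in siRELB, beside 2.02% of all genes. The siRELB median was 0.00, with 1 gene higher, the ligand FGF1 (0.72, 0.0131), and 1 lower, EGR1 (-0.84, 0.0122). Both were named after their values were seen. Their calls were lost without siNS replicate 3, siRELB replicate 2 or siRELB replicate 3 (0.0801 to 0.122), and that of FGF1 without siNS replicate 2 (0.0573). The counts were 20 in siNFKB2 and 5 in siRELB with the replicate block. The siRELB count was 0 on leaving out siNS replicate 3, siRELB replicate 2 or siRELB replicate 3, 1 on leaving out siNS replicate 2 and 5 on leaving out siNS replicate 1. Of 6 tested interleukin 17 receptors, ligands and adaptors, 2 were called in siNFKB2 (33.3%, beside 26.1% of all genes). IL17D rose (0.92, 0.0238) and the adaptor gene TRAF3IP2 fell (-0.99, 0.0283), while the receptors IL17RC (-0.44, 0.0846) and IL17RB (-1.47, 0.0852) were not called. Leaving out siNS replicate 3, siNFKB2 replicate 2 or siNFKB2 replicate 3 ended the TRAF3IP2 call (0.0663, 0.116 and 0.0844), and leaving out siNS replicate 1, siNS replicate 2 or siNFKB2 replicate 1 ended that of IL17D (0.0585, 0.0718 and 0.0628). In siRELB edgeR called 0 of the 6 (beside 2.02% of all genes), with 0 at an unadjusted p under 0.05 and 0 by DESeq2. The list's median was -0.36 in siNFKB2 and 0.05 in siRELB.

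Around ITGA2, other integrin genes went both ways. Of 18 tested subunits, 4 rose and 6 fell in siNFKB2 (55.6%, beside 26.1% of all genes), with a median of 0.20. In siRELB 1 fell (5.56%, beside 2.02% of all genes), with a median of -0.27. ITGB3 fell in siNFKB2 (log2 -2.53, adjusted p = 0.00029), with ITGA6 (-1.47, 0.000857), a laminin receptor subunit, ITGA4 (-1.45, 0.00197) and ITGB8 (-1.58, 0.00274). In siRELB ITGB8 fell too (-1.27, 0.0432), and ITGB3, ITGA6 and ITGA4 were at -0.31, -0.15 and -0.97 (0.549, 0.76 and 0.0649). ITGB1, the partner of ITGA2, named for that role after its value was seen, was at 638.2 ± 174.1 CPM in siNS, 943.7 ± 122.1 CPM in siNFKB2 and 1006 ± 39.3 CPM in siRELB (SD, n = 3 each). Its log2 fold changes were 0.56 and 0.66 (edgeR adjusted p = 0.0375 and 0.0953, with the siNFKB2 call lost at 0.0533 to 0.153 without any 1 library except siNS replicate 1 and siNFKB2 replicate 1), so the beta1 partner had a positive value in both knockdowns where ITGA2 had opposite ones. The ITGB8 call in siRELB was lost in 6 of 9 settings that left out 1 library, at adjusted p of 0.0665 (without siNFKB2 replicate 3) to 0.216 (without siRELB replicate 3). The siRELB count was 4 with the replicate block, 5 and 2 without siNS replicate 1 and siRELB replicate 1, and 0 without any other of the 9 libraries except siNFKB2 replicate 1.

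Of 31 tested collagen ligands, collagen receptors and integrin adaptors, 6 rose and 11 fell in siNFKB2 (54.8%, beside 26.1% of all genes, median -0.13). In siRELB 2 rose (6.45%, beside 2.02% of all genes, median 0.06). The fibril collagen gene COL5A1 fell in siNFKB2 (log2 -2.15, adjusted p = 0.000361), as did the adaptors TNS1 (-1.35, 0.000482) and TNS3 (-1.36, 0.00144). In siRELB these 3 were at -0.06, 0.51 and -0.05 (0.92, 0.143 and 0.93). The 2 genes that rose in siRELB, FERMT2 (1.06, 0.00584) and PTK2 (0.66, 0.0422), both integrin adaptors named after their values were seen, also rose in siNFKB2 (0.58 and 0.60, 0.00883 and 0.0109). The siRELB call of FERMT2 was lost without siNS replicate 3 (0.0607) or siRELB replicate 2 (0.0547), that of PTK2 without any 1 library except siNS replicate 1 and siNFKB2 replicate 1 (0.0842 to 0.262), and the siNFKB2 call of PTK2 without siNS replicate 3 (0.0612). The siRELB count was 4 with the replicate block and ranged from 0, without siNS replicate 3 or siRELB replicate 2, to 6 without siNS replicate 1. It was 1 without siNS replicate 2, siNFKB2 replicates 2 or 3 or siRELB replicates 1 or 3.

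The last list holds targets of YAP and of SRF, transcription regulators that respond to the state of the actin cytoskeleton. It also holds the SRF gene and genes of partner regulators, so its counts are not of targets alone. Of 34 tested, 4 rose and 6 fell in siNFKB2 (29.4%, beside 26.1% of all genes, median -0.15). In siRELB 3 rose and 2 fell (14.7%, beside 2.02% of all genes, median 0.14). SRF itself fell in siNFKB2 (log2 -1.11, adjusted p = 0.000439) and was at 0.39 (0.165) in siRELB. ANKRD1 rose in both (1.08 and 0.73, adjusted p = 0.000749 and 0.0333), and THBS1, a matrix glycoprotein, fell in both (-0.79 and -0.62, 0.00113 and 0.0273). The siRELB calls of ANKRD1 and THBS1 were lost without siNS replicate 2 (0.114 and 0.0573), siNS replicate 3 (0.185 and 0.126), siRELB replicate 2 (0.127 and 0.16) or siRELB replicate 3 (0.172 and 0.169). That of ANKRD1 was also lost without siNFKB2 replicate 2 (0.054), siNFKB2 replicate 3 (0.0548) or siRELB replicate 1 (0.0937). With the replicate block 16 and 14 of the list were called in siNFKB2 and siRELB. The siRELB count was 11 without siNS replicate 1, 1 without siNS replicate 2, 3 without siNFKB2 replicate 2, siNFKB2 replicate 3 or siRELB replicate 1, and 0 without siNS replicate 3 or siRELB replicates 2 or 3.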

How the data were processed

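For each of the 9 libraries the authors deposited raw counts by gene symbol. The submitters' processing notes name Trimmomatic 0.38, STAR 2.7.1a, Subread 1.6.4 and GRCh38.p13. Their settings, the annotation and the use of strand are not given. A suffix marks 5005 entries as further placements of a symbol, with none among the 5 genes.

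Counts were filtered with filterByExpr, scaled by TMM and fitted in edgeR 4.0.16 (R 4.3.3) with 3 group means over 9 libraries. Each comparison with siNS was tested by quasi-likelihood, and p-values were adjusted by Benjamini-Hochberg across the 14815 genes tested. Every adjusted p in the text is from edgeR unless another tool is named. DESeq2 1.42.0 was an alternative, and code was tested on simulated data. Positions are from GENCODE 29, which may not be the annotation counted with. The labels do not state that replicate numbers pair the libraries, so the main fit has no block. The block was fitted as an alternative. All same-numbered libraries of different groups deviated together over genes, with correlations of 0.17 to 0.737. Only number 1 stood apart: libraries numbered 2 and 3 also correlated across numbers, at 0.101 to 0.663. Pairing of numbers 2 and 3 was thus not shown. If the libraries are paired, the adjusted p-values of the main edgeR fit leave this out.

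The 5 genes and all lists were chosen with earlier results of these data known. Named genes are the 5, both targets, of each list the 4 or fewer tested genes of lowest adjusted p in either comparison, the 3 genes most like each of the 5 (log2 CPM, prior count 2) and the 2 just outside the threshold, and neighbours by position. Marker lists cover cardiomyocyte, skeletal and smooth muscle, mesenchymal, epithelial, and blood and endothelial genes. In siNFKB2 and siRELB, 2 and 1 of 6 muscle and 8 and 1 of 14 mesenchymal markers tested were called. For epithelial markers it was 2 and 1 of 5, and for blood and endothelial markers 2 and 0 of 5. The 0 is by edgeR (1 at an unadjusted p under 0.05, 0 by DESeq2). Beside these, 26.1% and 2.02% of all genes were called. Of the genes these rules name, 2 are not reported here.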

Additional observations from a re-analysis of the deposited data

How the results depend on the processing

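All 10 log2 fold changes of the 5 genes kept their sign in all 17 alternatives. The genes were chosen by these signs and their groups do not overlap, so this gives their directions no further support. Of the 10, 2 moved by more than the spread between libraries: TNNT2 in siNFKB2 (-2.29 without the 3 libraries numbered 1) and ITGA2 in siRELB (-2.98 without siRELB replicate 1). Of 74 called values of other genes that were chosen by the naming rule or named later, 37 kept their call in all alternatives and none reversed. With 1 library left out, called genes numbered 2220 to 4895 in siNFKB2, 15 to 1819 in siRELB and 0 to 66 in opposite directions, and related genes 47 to 77 and 0 to 32. With the replicate block (paired by number) the same counts were 5944, 1570 and 212, with 39 related genes in siRELB, and none of the 74 calls was lost. Without the 3 libraries numbered 1 they were 6711, 3390 and 439, with 66 related genes in siRELB. DESeq2 gave 879 calls in siRELB, 92 opposite and 25 related. The fit of only the 6 libraries compared gave 129, 10 and 6, and 4 of the 5 genes among the opposite calls, as TNNT2 was at an adjusted p of 0.0542 in siRELB. Fewer samples enter the settings that leave libraries out, and otherwise the cause was not tested. Depth limits NPPB most, at 6 to 16 counts in siNFKB2.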
